A study of Mus musculus with 8 samples.

Results

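The mitochondrial genome of the mouse is represented here by 35 genes, 13 that code for proteins and 22 for transfer RNAs (tRNAs), of 49315 genes counted in each library. They are all the genes that the deposited counts place on chromosome MT, with no selection by value. The reference annotation, GENCODE M21 on GRCm38, has 37 genes there, and the coordinates of all 35 equal its own. The other 2, which code for ribosomal RNAs, were not analysed here. RNA came from the gastrocnemius, the large muscle of the calf, of C57BL/6 mice that were 3, 12, 24 or 30 months old. Each age had 2 paired-end libraries made from total RNA, 8 in all, with 42404254 to 59245029 counts. The labels give the ages and the strain, and they name no treatment, genotype or substrain. Whether the pair of libraries of an age came from different animals is not stated, and p-values therefore cover the spread between libraries and nothing more. The design asks how RNA of this muscle differs between young, middle-aged and old mice.

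The mitochondrial genome is a small circle inside the organelle, separate from the chromosomes of the nucleus. Both of its strands are transcribed into long precursors, and enzymes then cut out the tRNAs and so release the messenger and ribosomal RNAs between them. Its proteins are core subunits of complexes I, III, IV and V, which carry out respiration and ATP synthesis, and its tRNAs serve only the ribosomes of the organelle. Over evolution, pieces of this genome have been copied into the nuclear chromosomes, where they stay as pseudogenes. A short read from such a stretch can match both places.

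One such piece decides how the counts of 11 members can be read. A row of 7 annotated pseudogenes on chromosome 1 (24611535 to 24616197, minus strand, GRCm38) followed the mitochondrial genome from position 6390 to 11042, gene by gene and in the same order. Over 4140 aligned bases of annotated transcripts the 2 differed at 2 bases. One was A1066T in mt-Co1 and Gm29216, and the other T3C in mt-Nd3 and Gm28438, with positions counted from the first base of the mitochondrial gene, whose base stands first. By the coordinates of the annotated pseudogenes, the nuclear piece was 1 base longer between mitochondrial positions 9804 and 9876, a stretch that holds mt-Tr. The nuclear sequence between the pseudogenes, with this extra base, was not read, so other differences there would be missed. The first 60 bases of mt-Nd3 (MT, 9459 to 9518, plus strand) and of its copy (chromosome 1, 24613060 to 24613119, minus strand) are shown because mt-Nd3 gave the clearest difference between ages. The capital marks the base that differs.
mt-Nd3: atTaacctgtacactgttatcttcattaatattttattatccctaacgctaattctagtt
Gm28438: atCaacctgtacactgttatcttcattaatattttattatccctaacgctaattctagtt
The tRNA genes on either side of mt-Nd3, for glycine (MT, 9391 to 9458) and arginine (MT, 9808 to 9875), have no annotated copy of their own, although they lie inside the same stretch. They are shown whole because their counts differed alongside those of mt-Nd3.
mt-Tg: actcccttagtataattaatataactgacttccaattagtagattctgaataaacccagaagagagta
mt-Tr: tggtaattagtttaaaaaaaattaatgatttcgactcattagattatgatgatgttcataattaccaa
The copied stretch began within mt-Co1 and ended within mt-Nd4. Both borders are shown, with the part that aligns with the nuclear piece in capitals (MT, 6360 to 6419 and 11013 to 11072). The capitals of mt-Co1 hold the position of A1066T, so that base differs in the nuclear piece.
mt-Co1: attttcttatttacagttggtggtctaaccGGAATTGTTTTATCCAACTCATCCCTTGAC
mt-Nd4: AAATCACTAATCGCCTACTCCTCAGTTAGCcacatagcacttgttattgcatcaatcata

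Summed over genes, levels inside this stretch were far below those outside it in every library. The 11 genes wholly inside it were 6 protein genes (mt-Co2, mt-Atp8, mt-Atp6, mt-Co3, mt-Nd3 and mt-Nd4l) and 5 tRNA genes (mt-Ts1, mt-Td, mt-Tk, mt-Tg and mt-Tr). Together they took 0.0141% to 0.1027% of the counts of all members. They had 66.5 to 403 counts per kilobase, against 50833 to 101516 for the 22 genes wholly outside, a sum that rests mostly on protein genes. Single genes overlapped, since mt-Nd3 and mt-Tg averaged 30.7 and 21.6 CPM (counts scaled to the library total) per kilobase of gene and the outside tRNA genes mt-Tw and mt-Tf 15.7 and 14.9. mt-Co2 and mt-Co3, core subunits of cytochrome oxidase, averaged 1.59 and 4.31 CPM per kilobase, whereas mt-Co1, the catalytic subunit of the same enzyme, averaged 13112. The sources used here do not say how reads that match several places were treated. The low values inside the stretch therefore cannot be read as levels of these RNAs, and mt-Nd3, mt-Nd4l and mt-Tg in particular are uncertain.

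**Figure D1:**
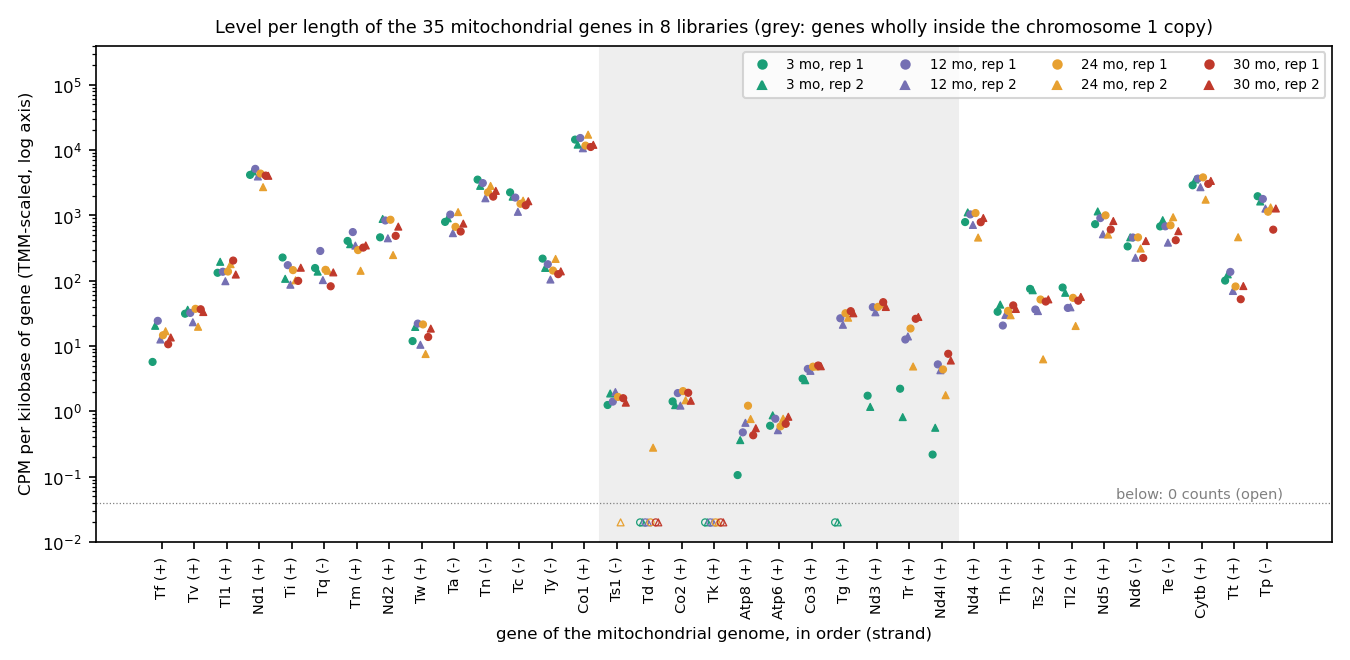
CPM per kilobase (log axis) of the 35 genes in their order along the mitochondrial genome, with the strand in brackets, and with 1 point per library (colour, age; shape, replicate). Open points had 0 counts; the genes inside the copied stretch (grey) sit below the protein genes outside it, and mt-Nd3, mt-Tg, mt-Tr and mt-Nd4l are lowest in both libraries of 3 months.

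The members as a whole took 3.66% and 3.12% of a library's counts at 3 months, 3.88% and 2.54% at 12, 3.29% and 2.94% at 24, and 2.66% and 3.46% at 30 months. The ages overlapped, and the 2 libraries of 12 months were the highest and the lowest of all. Protein genes made up 97.8% to 98.5% of this sum. Their share was 3.32% ± 0.37 at 3 months, 3.16% ± 0.93 at 12, 3.06% ± 0.25 at 24 and 3.01% ± 0.55 at 30 months (SD, n = 2). The means differed by less than the spread within ages, and an exact permutation test over the 4 ages gave p = 0.943 (two-sided, also after adjustment over 2 sums, with 0.00952 the smallest p possible). The tRNA genes took 0.0712% ± 0.013, 0.0564% ± 0.022, 0.0544% ± 0.0013 and 0.0506% ± 0.015 at the same ages (exact permutation p = 0.552, adjusted 0.943). In whole muscle, fewer cells or fibres of one type and less RNA per cell cannot be told apart.

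Another feature split the libraries into 2 sets that also differed in this share. Transcripts of kidney, a tissue rich in mitochondria, were found in 5 libraries: both of 3 months, the first replicate of 12 and of 24 months and the second of 30 months. There 9 kidney markers summed to 4.22 to 55.2 CPM of the library total. Both libraries of 3 months had the highest sums, 55.2 and 15.5 CPM, against 4.22 to 5.73 CPM in the later libraries of this set. The other 3 libraries had 0.591 to 0.733 CPM. The members took 3.12% to 3.88% of counts in the 5 libraries and 2.54% to 2.94% in the other 3, with no overlap. Within the 5 the share did not follow the amount: in order of falling kidney sum it was 3.66%, 3.12%, 3.88%, 3.29% and 3.46%. The part of the kidney transcripts in this was not tested. Markers of slow fibres, which hold more mitochondria than fast ones, summed to 370 to 561 CPM at 3 months and 1292 to 2304 CPM at 30 months, while the mitochondrial shares of these ages overlapped. Heart markers summed to 4.51 to 60.5 CPM, highest in replicate 2 of 30 months, where Sln alone gave 51.1 CPM. Myh6, Tnnt2 and Tnni3 were also highest there, at 4.17, 4.61 and 0.508 CPM. Nppa and Myl7, at 0.113 and 0.0188 CPM, lay within their range in the other libraries. Of 2 brown fat markers, Ucp1 was at 0 in all 8 libraries, and Cidea was at 0.482 to 1.52 CPM, highest in replicate 2 of 30 months. The 5 skeletal muscle markers summed to 208208 CPM or more in each library.

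**Figure D2:**
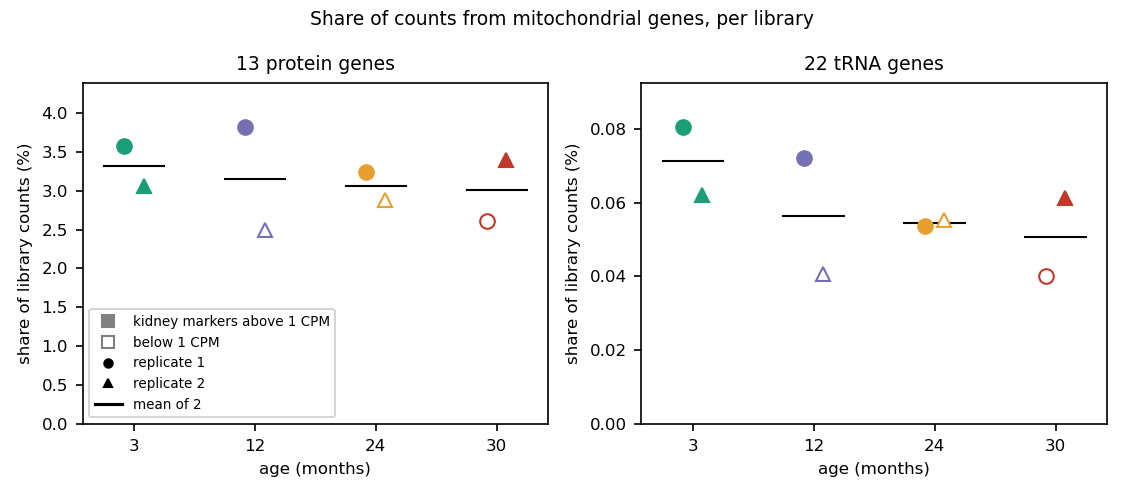
Share of library counts (%) of the 13 protein genes (left) and 22 tRNA genes (right) by age, 1 point per library with a line at the mean of 2. Filled points are libraries with kidney markers above 1 CPM; for protein genes they all lie at 3.06% or more, and the open points at 2.88% or less.

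Among protein genes outside the copied stretch or partly in it, edgeR called no difference between ages. These 7 genes code for the largest subunit of complex IV, 5 subunits of complex I and the cytochrome b of complex III. mt-Co1 (MT, 5328 to 6872) was at 22397 and 18766 CPM at 3 months, 23703 and 16516 at 12, 18138 and 26663 at 24, and 17256 and 18630 CPM at 30 months. Both libraries of 30 months lay just below those of 3 months, but 12 and 24 months each had a library above and a library below both young ones. Its log2 fold change for 30 against 3 months was -0.20 (SE 0.31, edgeR adjusted p = 0.921). mt-Cytb, the catalytic core of complex III, was at 3313 and 4064 CPM, then 4189 and 3098, 4379 and 1997, and 3478 and 3865 CPM at the 4 ages in turn, and its change at 30 months was -0.01 (SE 0.36). The ages overlapped here too.

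The complex I subunits outside the stretch form the membrane arm through which the enzyme pumps protons. mt-Nd1, which forms part of the site where ubiquinone binds, was at 3998 and 4526 CPM at 3 months, 4945 and 3782 at 12, 4189 and 2597 at 24, and 3902 and 3878 CPM at 30 months. Only replicate 2 of 24 months departed from the other libraries. mt-Nd2 was at 480 and 918, 869 and 465, 892 and 257, and 506 and 701 CPM in the same order. mt-Nd4, of which the first part lies in the copied stretch, was at 1092 and 1535, 1429 and 987, 1500 and 632, and 1085 and 1260 CPM. In both genes the ranges of the ages overlapped. mt-Nd5, the outermost pump subunit, was at 1341 and 2103, 1662 and 940, 1832 and 930, and 1113 and 1499 CPM. mt-Nd6 is the only protein gene on the minus strand, and it shares 14 bases with the end of mt-Nd5. It was at 174 and 240, 239 and 117, 240 and 162, and 116 and 211 CPM, again with overlapping ages. For 30 against 3 months the log2 fold changes of the 5 ran from -0.40 (SE 0.40, mt-Nd5) to -0.13 (SE 0.28, mt-Nd1), and edgeR called none.

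Per kilobase, mt-Co1 at 13112 CPM on average was followed by mt-Nd1 at 4156 and mt-Cytb at 3101. The lowest value of mt-Co1 over the 8 libraries, 10690, exceeded the highest of mt-Nd1, 5167. The ranges of mt-Nd1 and mt-Cytb overlapped. mt-Nd4, mt-Nd5, mt-Nd2 and mt-Nd6 averaged 864, 783, 613 and 361 CPM per kilobase, and each overlapped its neighbour in this order. Part of mt-Co1 and of mt-Nd4 lies in the copied stretch, so their values per kilobase may be too low.

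One library had another balance between these genes. In replicate 2 of 24 months, mt-Nd1 had 9.74 counts per 100 counts of mt-Co1, against 17.9 to 24.1 in the other 7 libraries. mt-Cytb had 7.49 against 14.8 to 24.1, and mt-Nd4 had 2.37 against 4.87 to 8.27. mt-Nd2 and mt-Nd5, at 0.964 and 3.49, were also below all other libraries, and mt-Nd6, at 0.606, was below their lowest value of 0.671. The same library had 1597 counts of mt-Tt, the threonine tRNA gene next to mt-Cytb, against 159 to 470 in the rest, and 578 counts of Gm29216, against 141 to 215. Its TMM scaling factor, 0.867, was the lowest of the 8. The other library of 24 months had mt-Nd1 at 23.1 and mt-Cytb at 24.1 per 100 counts of mt-Co1, so the mean of that age describes neither library.

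**Figure D3:**
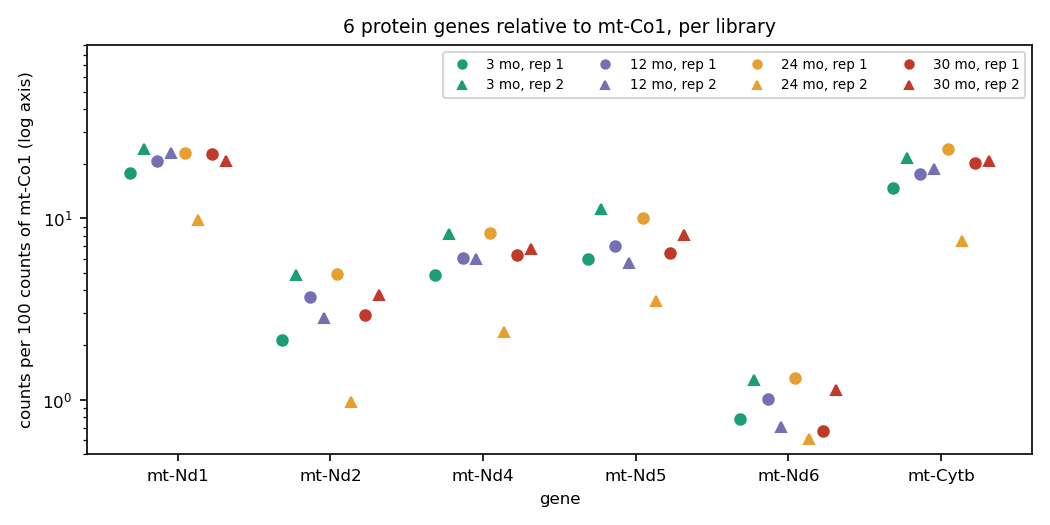
Counts of 6 protein genes per 100 counts of mt-Co1 in the same library (log axis), 1 point per library (colour, age; shape, replicate). Replicate 2 of 24 months is the lowest point for each gene, at 9.74 for mt-Nd1 and 7.49 for mt-Cytb.

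The levels of the tRNA genes went with their strand. The 8 on the minus strand had a median of 726 CPM per kilobase (range 1.39 to 2595) and the 14 on the plus strand 32.5 (range 0 to 347). Both sets include genes of the copied stretch, mt-Ts1 on the minus strand and mt-Td, mt-Tk, mt-Tg and mt-Tr on the plus strand. The 5 highest, mt-Tn, mt-Tc, mt-Tp, mt-Ta and mt-Te, for asparagine, cysteine, proline, alanine and glutamate, were all on the minus strand. The sources used here do not say whether strand was used in counting. Both strands are transcribed along the whole circle, so reads from the opposite strand and uncut precursors cannot be told apart from the tRNA itself. The highest gene of each strand and mt-Tp follow, and the sequences of mt-Tn (MT, 5089 to 5159) and mt-Tp (MT, 15356 to 15422), written along the minus strand, show what was counted.
mt-Tn: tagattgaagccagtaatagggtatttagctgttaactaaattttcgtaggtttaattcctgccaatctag
mt-Tp: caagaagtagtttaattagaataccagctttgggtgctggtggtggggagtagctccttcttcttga
mt-Tn was at 251 and 202 CPM at 3 months, 222 and 130 at 12, 160 and 201 at 24, and 138 and 169 CPM at 30 months. Both values at 30 months lay below both at 3 months, a log2 fold change of -0.56 (SE 0.26, edgeR adjusted p = 0.614). mt-Tm, for methionine and the highest on the plus strand, was at 28.1 and 25.1, 38.4 and 23.8, 20.3 and 9.82, and 22.2 and 24.0 CPM. mt-Tp, which had the lowest fold change of all tested members at 30 months, was at 132 and 110, 120 and 85.3, 76.4 and 88.9, and 40.6 and 85.7 CPM. All 4 libraries of 24 and 30 months were below both of 3 months, but the change of -0.94 at 30 months (SE 0.32) was not called (edgeR adjusted p = 0.446). It was -0.50 without replicate 1 and -1.57 without replicate 2 of 30 months (edgeR adjusted p = 0.694 and 0.0595).

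For 30 against 3 months, all 7 tested tRNA genes of the minus strand had a value below 0, with a median of -0.50 (range -0.94 to -0.37). None was called by edgeR, and at 12 and 24 months 1 and 2 of the 7 were above 0. On the plus strand the median of 12 tested genes was -0.06, with 5 above 0. The 12 included mt-Tg and mt-Tr, which lie in the copied stretch and were among the 5, whereas the 7 of the minus strand lie outside it. These medians are therefore not from like sets of genes. The 8 minus strand genes took 0.0720% and 0.0553% of counts at 3 months and 0.0338% and 0.0535% at 30 months. Kidney markers were above 1 CPM in both libraries of 3 months and in the higher library of 30 months. With the library sets as a term, the median of the 7 was -0.45 (range -0.78 to -0.11), again with 0 above 0 and none called by edgeR. The sets do not follow the amount of kidney transcripts, which was highest at 3 months.

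In the fit over all 8 libraries, the members called in any comparison were genes inside the copied stretch. Of 31 members with enough counts to test, edgeR called 2 for 12 against 3 months, mt-Nd3 and mt-Tg, where it called 0.0409% of all 19571 genes tested, 0.0255% as higher. The same 2 genes were called for 24 against 3 months (background 0.102%, 0.0818% higher), and mt-Nd4l joined them for 30 against 3 months (background 0.148%, 0.123% higher). All were higher at the older age, and these 3 comparisons share the libraries of 3 months. The test across the 4 ages called mt-Nd3 and mt-Tg (background 0.0613%). Among 24 against 12, 30 against 12 and 30 against 24 months, edgeR called 0 members, with backgrounds of 0, 0.00511% and 0%. There 1, 1 and 4 members had an unadjusted p below 0.05, and DESeq2 and limma-voom called 0 as well. mt-Ts1, mt-Td, mt-Tk and mt-Atp8, all inside the stretch, were not tested. They had at most 7, 1, 0 and 13 counts in any library.

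The 24 members outside the stretch or partly in it were all tested, and over all 8 libraries edgeR, DESeq2 and limma-voom called 0 of them in each comparison. At the backgrounds just given, a count of 0 says nothing particular of these genes. For 12, 24 and 30 against 3 months, 2, 2 and 1 of them had an unadjusted p below 0.05 in edgeR. Without replicate 1 of 24 months, mt-Ts2, for serine, was called for 24 against 3 months, for 30 against 24 months and across the ages. That left 24 months with replicate 2 alone, the library with another balance between genes. It had 19 counts of mt-Ts2, against 104 to 228 in the rest. In only the 5 libraries with kidney markers, mt-Tq, for glutamine, was called for 12 against 3 and 30 against 12 months and across the ages, and mt-Tm across the ages. There 12, 24 and 30 months had 1 library each, so the spread came from the 2 libraries of 3 months. The library of 12 months had 1042 counts of mt-Tq, against 508 to 545 in the rest of the 5. In the comparisons named, both fits also called more of all genes than the fit over all 8 libraries. mt-Ts2, mt-Tq and mt-Tm all lie outside the stretch. For 12, 24 and 30 against 3 months, the 24 members had median log2 fold changes of -0.23, -0.25 and -0.36, with 5, 5 and 3 above 0. The median of all genes tested was 0.00, 0.01 and 0.01. With the 2 sets of libraries, with and without kidney markers, as a term in the fit, those medians became -0.06, -0.05 and -0.08. Each time 9 of 24 were above 0, and edgeR again called 0. Both libraries of 3 months are in the same set and have its highest kidney sums, so the term does not adjust for the amount.

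mt-Nd3, a small subunit of complex I, had 28 and 22 counts at 3 months, 705 and 588 at 12, 724 and 779 at 24, and 745 and 735 at 30 months. Both young libraries lay far below all 6 later ones, and the later ages lay close together. The log2 fold changes against 3 months were 4.64, 4.85 and 4.90 (SE 0.24 each, edgeR adjusted p = 7.41e-05, 5.18e-05 and 4.03e-05). Its copy Gm28438 ran the other way, with 1035 and 1055 counts at 3 months and 18 and 27, 20 and 28, and 24 and 25 at the later ages. Its log2 fold changes were -5.57, -5.49 and -5.39 (SE 0.27, 0.26 and 0.26, with the same adjusted p values). The counts of the pair thus lay almost all with the copy at 3 months and with mt-Nd3 later, an exchange in which mt-Nd3 held 2.04% to 2.63% of the pair in young and 95.6% to 97.5% in older libraries. Added up, the pair had 1063 and 1077 counts at 3 months and 615 to 807 later. With each copy's counts added to its mitochondrial gene in the fit, mt-Nd3 gave -0.72, -0.52 and -0.46 (edgeR adjusted p = 0.49, 0.505 and 0.445), below 0 and not called.

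mt-Nd4l, another small subunit of complex I, had 3 and 9 counts at 3 months, 80 and 65 at 12, 68 and 27 at 24, and 103 and 95 at 30 months. The young libraries were again below all others. Its copy Gm10222 had 94 and 111 counts at 3 months and 0 to 5 in the 6 later libraries. The share of mt-Nd4l in the pair was 3.09% and 7.5% at 3 months and 94.2% to 100% later. The annotated transcript of Gm10222 matched mt-Nd4l at all 294 of its bases. The log2 fold changes of mt-Nd4l were 3.55, 2.92 and 4.06 (SE 0.55, 0.56 and 0.55, edgeR adjusted p = 0.117, 0.203 and 0.0358). The call at 30 months was lost when either library of 3 months was left out (edgeR adjusted p = 0.32 without replicate 1 and 0.258 without replicate 2) and with limma-voom (adjusted p = 0.0729). With the copies added the values were -0.55, -1.19 and -0.038 (edgeR adjusted p = 0.901, 0.532 and 0.99).

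mt-Tg, for glycine, ends on the base before mt-Nd3 begins, 3 bases from the position of T3C. It had 0 and 0 counts at 3 months, 93 and 74 at 12, 113 and 95 at 24, and 106 and 115 at 30 months. It was not detected in young libraries, where a count of 0 allows up to 0.0556 to 0.0648 CPM (3 counts, counting error only), and it was present in all 6 later ones. The later means of 1.63, 2.01 and 2.25 CPM were at least 27.0-fold, 33.3-fold and 37.3-fold higher than the mean of these limits at 3 months (edgeR adjusted p = 0.00195, 0.00101 and 0.000675). No annotated copy pairs with mt-Tg, so no counts could be added to it, and it was the only member called once the copies were added (backgrounds of 0.0153%, 0.0562% and 0.0869%). The call across the 4 ages was lost without either library of 3 months. mt-Tr, for arginine, on the other side of mt-Nd3, had 7 and 3 counts at 3 months, 44 and 49 at 12, 66 and 17 at 24, and 81 and 101 at 30 months. Its log2 fold changes of 3.14, 2.96 and 4.16 (SE 0.69, 0.70 and 0.67) were not called by edgeR (adjusted p = 0.461, 0.314 and 0.0605), but DESeq2 called all 3 (adjusted p = 0.00387, 0.00572 and 9.2e-07), where it called 0.332%, 0.69% and 1.09% of all genes tested.

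mt-Co3, the third core subunit of complex IV, ends 71 bases before the T3C position and showed a smaller difference of the same kind. It had 115 and 127 counts at 3 months, 180 and 168 at 12, 198 and 196 at 24, and 180 and 205 at 30 months, so the young libraries were lowest. Its copy Gm28437 had 290 and 309 counts at 3 months, against 100 to 180 later. The share of mt-Co3 in the pair was 28.4% and 29.1% at 3 months and 52.1% to 66.6% later. The log2 fold changes of mt-Co3 were 0.49, 0.65 and 0.69 (SE 0.19 each, edgeR adjusted p = 0.898, 0.446 and 0.284), and none was called.

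Upstream in the stretch the shares of the ages overlapped. mt-Co2, which ends 1765 bases before that position, had 45 and 46 counts at 3 months, 67 and 43 at 12, 73 and 52 at 24, and 60 and 53 at 30 months. It held 30.3% and 30.8% of the counts of its pair with Gm28661 at 3 months and 28.9% to 40.3% later. Only replicate 2 of 12 months lay below the young libraries, and all other later ones lay above them. mt-Atp6, the proton channel subunit of ATP synthase, had 19 and 32, 27 and 18, 21 and 27, and 20 and 30 counts. It held 34.4% and 35.2% of its pair with Gm10925 at 3 months against 30.0% to 49.1% later. Here only replicate 1 of 24 months lay below the young libraries, and all other later ones lay above them, on few counts. mt-Atp8, which shares 43 bases with mt-Atp6, had 1 to 4 counts at 3 months and 4 to 13 later. Downstream of mt-Nd4l, the copy of the first part of mt-Nd4, Gm28439, had 31 and 24 counts at 3 months, 14 and 5 at 12, 15 and 9 at 24, and 9 and 10 at 30 months. Like the copies of mt-Co3, mt-Nd3 and mt-Nd4l it was highest in both young libraries, and its log2 fold changes were -1.57, -1.25 and -1.51 (SE 0.52, 0.51 and 0.52, edgeR adjusted p = 0.804, 0.624 and 0.442). mt-Nd4 itself, with 32454 or more counts in each library, held 99.939% and 99.971% of this pair at 3 months and 99.972% to 99.990% later, without overlap. The 5 genes with an exchange or a gain, mt-Co3, mt-Tg, mt-Nd3, mt-Tr and mt-Nd4l, are neighbours in this order along the genome. They were picked by their counts. The nearer end of each lies 0 to 416 bases from T3C, and the stretch with the extra base lies among them. mt-Nd4, next in the order, begins 706 bases from T3C. The nuclear bases opposite mt-Tg and mt-Tr were not read, so nearer differences are not known. Any part of these sequence differences in the counts was not tested.

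**Figure D4:**
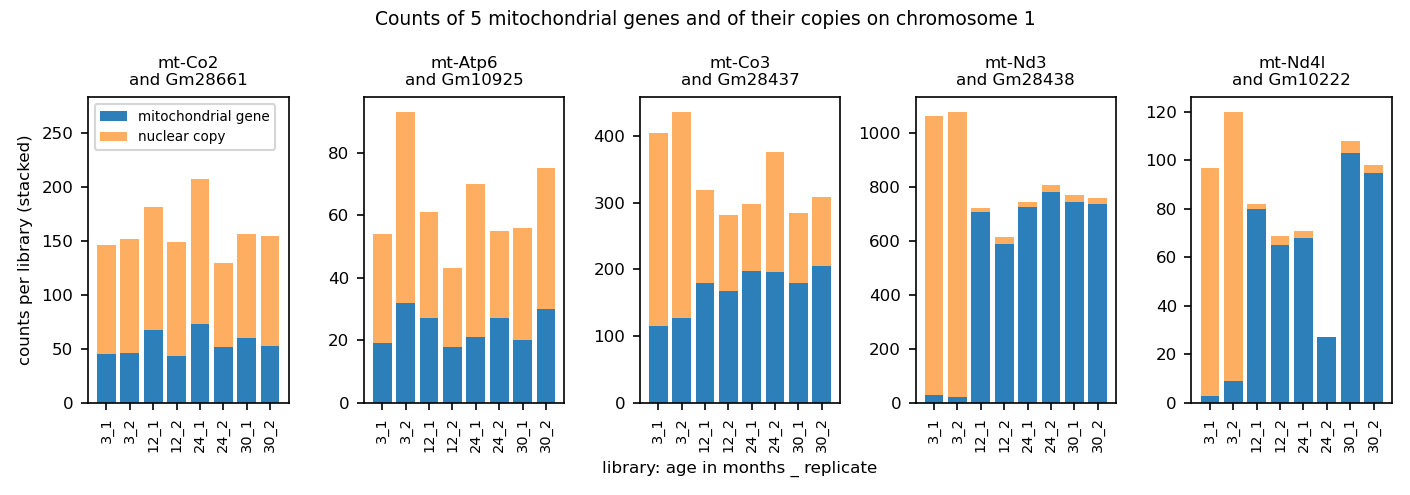
Counts per library of 5 protein genes (blue) and of their copies on chromosome 1 (orange), stacked, with libraries labelled by age in months and replicate. mt-Nd3 and mt-Nd4l hold little of the stack in both libraries of 3 months and nearly all of it later. The parts held by mt-Co2 and mt-Atp6 overlap between 3 months and the later ages.

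The 3 later libraries with kidney markers above 1 CPM had 705, 724 and 735 counts of mt-Nd3, and the 3 without had 588, 779 and 745. With the sets as a term, the log2 fold change of mt-Nd3 at 30 months was 4.88 (SE 0.23, edgeR adjusted p = 8.97e-07). That fit also called mt-Nd4l for all 3 ages against 3 months and mt-Tr for 30 against 3 months (edgeR adjusted p = 0.00936). It called 0.148%, 0.363% and 2.13% of all genes tested at 12, 24 and 30 against 3 months. Which base the libraries carry at these positions needs the reads and was not analysed here.

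**Figure D5:**
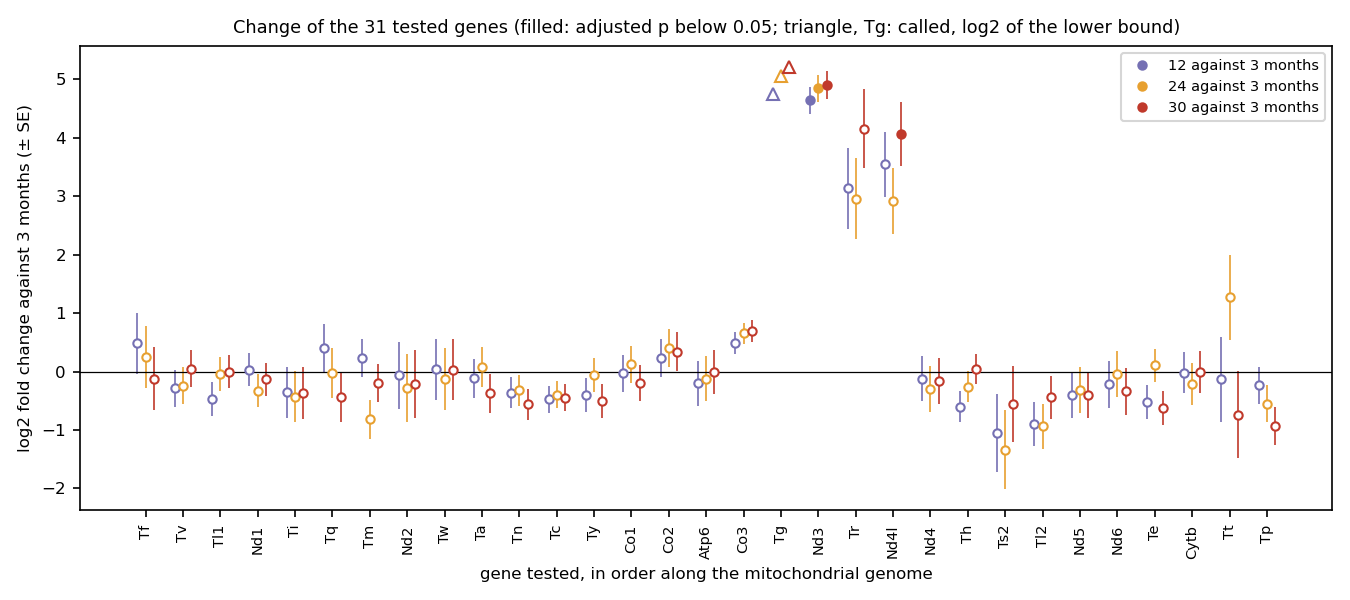
Log2 fold change against 3 months with its SE for the 31 tested members in their order along the genome (colour, older age; filled, edgeR adjusted p below 0.05). For mt-Tg, called at each age, triangles give the log2 of the lower bounds of 27.0-fold, 33.3-fold and 37.3-fold; mt-Tg, mt-Nd3, mt-Tr and mt-Nd4l stand above all others.

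Of 56 nuclear genes listed as making or handling mitochondrial RNA, 55 were counted and tested: 15 for transcription and copying of the genome, 29 for RNA processing and stability and 11 for translation. edgeR, DESeq2 and limma-voom called 0 of them in each comparison. As edgeR called 0.0409%, 0.102% and 0.148% of all genes for 12, 24 and 30 against 3 months, that count says nothing particular of the list. In these comparisons 2, 0 and 1 had an unadjusted p below 0.05 in edgeR. Their medians for 12, 24 and 30 against 3 months were -0.07, 0.02 and -0.08, with 19, 30 and 19 of 55 above 0. In the same comparisons 50.5%, 51.9% and 51.4% of all genes tested were above 0.

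Polrmt, the RNA polymerase of the organelle, was at 16.9 and 20.6 CPM at 3 months, 20.8 and 33.2 at 12, 19.3 and 28.3 at 24, and 30.9 and 18.2 CPM at 30 months. Its ages overlapped. Mgme1, a nuclease that trims mitochondrial DNA ends, was at 14.0 and 14.9, 12.99 and 12.89, 13.24 and 13.33, and 11.78 and 11.03 CPM, lowest in the libraries of 30 months (log2 fold change -0.34 against 3 months, SE 0.13, edgeR adjusted p = 0.523). Mrm1, a methyltransferase of mitochondrial ribosomal RNA, and Cdk5rap1, which modifies mitochondrial tRNAs, had log2 fold changes of -0.37 (SE 0.22) and -0.23 (SE 0.14) for 30 against 3 months. Tsfm, an elongation factor, and Taco1, an activator of mt-Co1 translation, were at 0.25 (SE 0.15) and -0.30 (SE 0.19). None of these 6 genes was called.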

How the data were processed

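The deposited values are raw counts per Ensembl gene, 1 file per library, and no entry was left out. Per the labels' protocols, total RNA was extracted with Trizol and libraries were made with a NEBNext Ultra kit. Per the submitters' processing notes, Trimmomatic 0.36, STAR 2.5.2b, featureCounts and Subread 1.5.2 and the builds GRCm38 and mm10 were used. Annotation release, strand setting and the treatment of reads with several matches are not stated. Symbols from GENCODE M21 matched 48970 of 49315 identifiers. Sequences are from the GENCODE M21 transcripts.

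The analysis used edgeR 4.0.16 in R 4.3.3: filterByExpr (19571 genes), TMM, a robust quasi-likelihood fit of age over 8 libraries (4 residual degrees of freedom), Benjamini-Hochberg over all genes tested and calls at adjusted p below 0.05. The SE was taken as log2 fold change over the square root of F. CPM are TMM-scaled unless given as a share of the total. DESeq2 1.42.0 and limma-voom (limma 3.58.1) were alternatives. Copies were found with BLAST+ 2.17.0, and 7 that covered at least 80% of a gene at 95% identity were added to 6 members. These are not the same 7 as the row on chromosome 1. Gm29216 and Gm28439 of that row cover less and were not added. Gm13340 and Gm13341 on chromosome 2, copies of mt-Co1 and mt-Co2, were added. Library sets were cut at 1 CPM of 9 kidney markers. The fit was tested on simulated counts.

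The members, lists, alternatives and tests were chosen with earlier results of these data known. Every member is accounted for. Genes named with values were those called, the protein genes, the highest tRNA gene of each strand, the lowest and highest fold change at 30 months, mt-Nd3, mt-Nd4l and mt-Tg with their copies, and the 2 lowest p at 30 months in each nuclear group. mt-Tr, mt-Co3, Gm28437, Gm28661, Gm10925, Gm29216, Gm28439, mt-Tt, mt-Ts2, mt-Tq, mt-Tw and mt-Tf were added after their values were seen.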

Additional observations from a re-analysis of the deposited data

How the results depend on the processing

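The number of members called for 12 and for 24 against 3 months, 2 each, became 4 and 4 with no filter on low counts, 4 and 4 with DESeq2, 1 and 1 with the nuclear copies added, 0 and 0 without mt-Nd3, mt-Nd4l and mt-Tg, and 5 and 4 in only the 5 libraries with kidney markers. For 30 against 3 months, 3 became 1 with the copies added and 0 without those 3 genes. It was 4 with no filter, DESeq2, the library set as a term, only the libraries compared or only the 5 libraries, and 2 with limma-voom or the replicate block. Across the ages, 2 became 4 with no filter, 4 with DESeq2, 4 with the library set as a term, 1 with the copies added, 0 without those 3 genes and 6 in only the 5 libraries with kidney markers, where 30 against 12 months also gave 1. Leaving out 1 library at a time gave 2 to 2, 2 to 3 and 2 to 4 calls for 12, 24 and 30 against 3 months, 1 to 3 across the ages and 0 to 1 for 30 against 24 months (mt-Ts2, without replicate 1 of 24 months). The age left with 1 library was assumed to vary like the others. The calls over all genes moved too. For 12, 24 and 30 against 3 months they were 8, 20 and 29 in the main fit. They became 134, 233 and 378 with no filter and 65, 135 and 214 with DESeq2. With the library set as a term they were 29, 71 and 416, and with the copies added 3, 11 and 17. Across the ages, 12 became 469, 231, 203 and 9 in the same order. With only the libraries compared, 29 became 33. The fits in only the 5 libraries also called more of all genes. With the copies added, mt-Nd3 reversed to -0.72, -0.52 and -0.46, mt-Nd4l to -0.55, -1.19 and -0.038, and mt-Co3 to -0.52, -0.37 and -0.48, at 12, 24 and 30 against 3 months. That fit moves the copies' counts by construction. In the other 18 alternatives mt-Nd3 kept its direction and its call in all 3 comparisons (4.38 to 5.20). The share tests of protein and tRNA genes kept an adjusted p above 0.05 in each alternative run. The fits in only the 5 libraries and the set term in the share tests were chosen after seeing the data.

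The replicate numbers did not pair the libraries: deviations of replicate 1 correlated between ages at -0.357 to 0.262. With the replicate block, mt-Nd4l at 30 months was not called (4.03, edgeR adjusted p = 0.0687). The share tests then gave an exact permutation p of 0.958 (protein) and 0.625 (tRNA). The share of ribosomal RNA genes was not analysed here, since no such gene was among the members. The level of genes inside the copied stretch cannot be read from counts that may be shared with the nuclear piece, and with 2 libraries per age a difference between single pairs of ages in the summed shares was not testable.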
